A study of Mus musculus with 4 samples.

Results

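The antiviral interferon-stimulated genes Isg15, Isg20, Ifit1, Ifit2, Ifit3, Oasl2, Usp18, Zbp1, Xaf1 and Parp14 were followed in mouse regulatory T cells. Their members were all probes whose symbol in the platform annotation was one of these 10 names, which gave 17 of the 25697 probes on the array. Foxp3-GFP-positive regulatory T cells came from spleens of C57Bl/6 mice aged 8 to 12 weeks and were activated overnight with anti-CD3, an antibody that triggers the T-cell receptor complex. The isotype group also received rat IgG, and the OX86 group received OX86, an agonist antibody to OX40, a costimulatory receptor of T cells. Both groups therefore shared the strain, the Foxp3 reporter sort and the anti-CD3 activation, and differed in the added antibody. Each group had 2 arrays, and the labels number them as replicates without naming the animals or cultures, so the spread behind each p-value is that between arrays and may be technical.

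Type I interferons bind the receptor chains Ifnar1 and Ifnar2 and, through the kinases Jak1 and Tyk2, activate a transcription factor complex with Irf9 that binds the interferon-stimulated response element in promoters. The genes induced this way make proteins that block viral translation, degrade or sense foreign nucleic acid, and dampen the response itself. Several of them can also be induced by interferon gamma or by interferon regulatory factors that nucleic acid sensors activate directly.

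The response element was looked for in the promoters because it is the feature these genes are best known to share. RefSeq promoter windows of build GRCm38.p6, from 250 bases before to 50 after each annotated start, were at hand for 7 of the 10 genes. Usp18, Zbp1 and Parp14 had none. The core of the element, GAAANNGAAA on either strand, was present in 3 of these 7 genes, Isg15, Ifit3 and Ifit1, against 1079 of 27025 genes with a window (3.99%). The 3 windows are printed with the matches in capitals. Capitals that read TTTC are matches on the opposite strand.
Isg15 promoter (chr4:156200769-156201068, minus strand): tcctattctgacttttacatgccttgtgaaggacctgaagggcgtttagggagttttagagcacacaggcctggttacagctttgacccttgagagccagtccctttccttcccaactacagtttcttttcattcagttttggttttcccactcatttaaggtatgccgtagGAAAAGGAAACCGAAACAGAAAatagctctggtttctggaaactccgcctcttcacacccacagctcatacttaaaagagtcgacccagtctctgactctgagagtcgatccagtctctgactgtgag
Ifit3 promoter (chr19:34583279-34583578, plus strand): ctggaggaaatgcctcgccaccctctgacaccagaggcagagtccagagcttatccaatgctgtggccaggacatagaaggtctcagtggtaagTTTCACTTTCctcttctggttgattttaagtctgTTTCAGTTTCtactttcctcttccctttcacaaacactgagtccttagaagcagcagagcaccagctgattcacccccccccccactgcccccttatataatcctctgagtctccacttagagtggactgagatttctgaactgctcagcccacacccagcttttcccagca
Ifit1 promoter (chr19:34640639-34640938, plus strand): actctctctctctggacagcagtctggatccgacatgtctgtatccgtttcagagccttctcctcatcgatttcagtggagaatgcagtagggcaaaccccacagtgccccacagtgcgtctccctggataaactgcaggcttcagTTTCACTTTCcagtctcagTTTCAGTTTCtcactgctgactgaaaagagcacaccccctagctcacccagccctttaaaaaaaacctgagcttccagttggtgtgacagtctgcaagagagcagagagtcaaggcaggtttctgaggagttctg
In Isg15, 3 matches overlapped in a single run that began 78 bases before the start. In Ifit3 the matches began 156 and 122 bases before the start, and in Ifit1 104 and 85 bases before it. Ifit3 and Ifit1 held the same pair of matched sequences, TTTCACTTTC and TTTCAGTTTC. The genes lie in the Ifit cluster of chromosome 19, where Ifit2, Ifit3, Ifit3b, Ifit1bl2 and Ifit1 follow in this order. No match was found in the windows of Isg20, Ifit2, Oasl2 and Xaf1. The gamma-activated site TTCNNNGAA, a palindrome that interferon gamma signalling uses, was present in a window of 2 of the 7 genes, Isg20 and Ifit2, against 2582 of 27025 genes (9.55%). These matches describe letters in the windows and show no binding.

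Of the 17 probes, 11 were detected on all 4 arrays, with a detection p-value under 0.05 against the array's negative control beads. This was 64.7% of them, against 40.8% of all probes. By gene, 8 of the 10 were detected on all 4 arrays through at least 1 probe, Xaf1 on 3 arrays, and Ifit1 on none. Beyond these, 3 further probes, of Ifit3, Oasl2 and Zbp1, were detected on a single array each, and the last Ifit3 probe on none. The cells of the sort were represented by their markers: all 7 T-cell and regulatory T-cell markers (Cd3e, Cd3g, Cd4, Foxp3, Il2ra, Ctla4 and Ikzf2) were detected on every array. The OX40 gene Tnfrsf4 read 13.52 and 13.61 with isotype and 13.67 and 13.76 with OX86 on the normalized log2 scale.

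**Figure D1:**
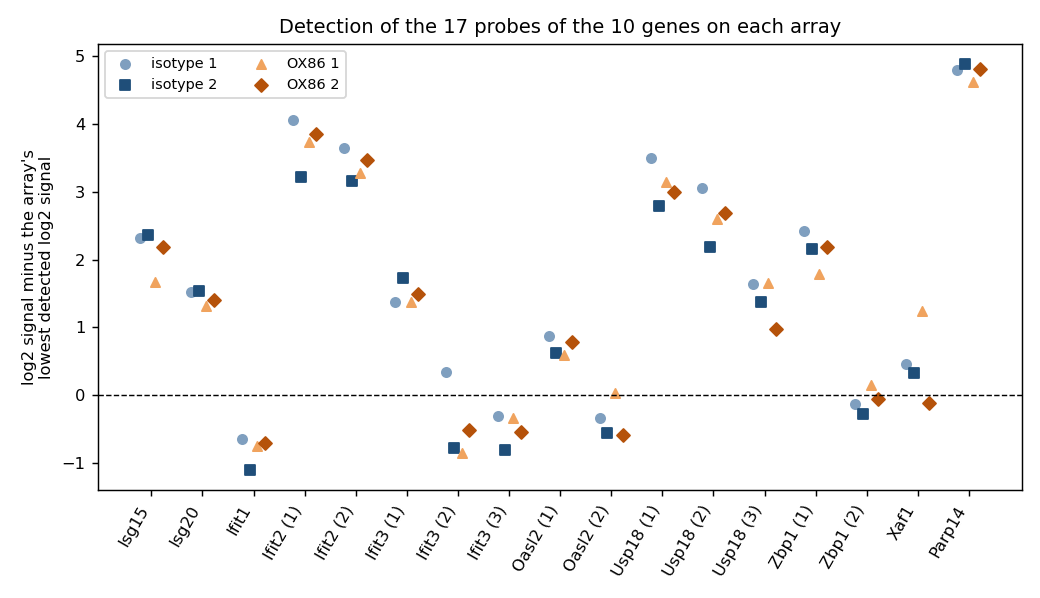
Normalized log2 signal of each of the 17 probes minus the lowest detected log2 signal of the same array, with 1 point per array and numbered probes where a gene has more than 1. Points above the dashed line at 0 exceed that lowest detected signal: Ifit1 lies below it on all 4 arrays, and Parp14 between 4.62 and 4.88 above it. Heights of different probes are not comparable as amounts of RNA.

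None of the genes passed the test between OX86 and isotype. In limma with Benjamini-Hochberg adjustment over all 13338 tested probes, 0 of the 12 tested probes of these genes passed at 0.05, with an adjusted p = 0.9999 for each, and 0% of all tested probes passed. At an unadjusted p under 0.05 there were also 0 of the 12, against 3.33% of all tested probes. By the brightest probe of each gene, the mean was lower with OX86 for 7 of 9 genes, with a median log2 change (OX86 minus isotype) of -0.16, against 0.0027 over all 9361 tested genes. It was -0.086 on the authors' processed values, and -0.030 where arrays were scaled to a common median, against 0.12 over all tested genes there. With quantile normalization the median was -0.38 without isotype 1 and -0.064 without isotype 2, with 6 of 9 genes lower in each case, and 1 group then held a single array. In bulk RNA, fewer cells that express a gene and less of its RNA per cell cannot be told apart.

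Isg15, a ubiquitin-like protein that is attached to other proteins during antiviral responses, had the lowest log2 change among the genes. Its normalized log2 signals were 8.02 and 8.41 on isotype 1 and 2, and 7.51 and 8.00 on OX86 1 and 2. The groups did not overlap, with the OX86 arrays lower, but OX86 2 came within 0.025 of isotype 1, while the OX86 arrays were 0.49 apart. The log2 change was -0.46 (95% interval -1.12 to 0.19, n = 2 arrays a group, limma across all probes), or 1.38-fold lower with OX86. It ran from -0.71 without OX86 2 to -0.22 without OX86 1, and was -0.23 on the authors' processed values and also with no background correction.

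Usp18 encodes the protease that removes Isg15 from its targets and also blocks signalling at the interferon receptor. Its brightest probe read 9.22 and 8.84 with isotype and 8.98 and 8.81 with OX86. Isotype 1 was the highest array, the other three lay close together, and the groups overlapped. The log2 changes of its 3 probes were -0.13, -0.028 and -0.24, and the third probe read 7.35, 7.42, 7.49 and 6.80 on isotype 1, isotype 2, OX86 1 and OX86 2. Each of the 3 probes turned to a value above 0 when some single array was left out.

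The Ifit genes encode tetratricopeptide-repeat proteins that bind viral RNA or restrain its translation. Ifit2 was detected on every array through both of its probes. Its brightest probe read 9.78 and 9.26 with isotype and 9.58 and 9.67 with OX86. The OX86 arrays fell between the isotype arrays, and the log2 change was 0.10 (-0.50 to 0.71). The other Ifit2 probe had a change of the opposite sign, -0.075 (-0.57 to 0.42), so the gene had no settled direction.

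Ifit3 was detected on every array through 1 of its 3 probes, which read 7.08 and 7.77 with isotype and 7.22 and 7.31 with OX86. Here too the OX86 arrays fell between the isotype arrays, which were 0.69 apart. The log2 change was -0.16 (-0.85 to 0.53), and it was 0.18 without isotype 2 and -0.51 without isotype 1. The second Ifit3 probe was detected on isotype 1 alone, and the third on no array. Probe sequences were not used here, so reading of the close copy Ifit3b by these probes was not assessed.

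Ifit1 had a single probe with deposited signals of 274.5 and 254.9 with isotype and 275.5 and 281.4 with OX86. The lowest detected signals of those arrays were 316.2, 302.2, 315.7 and 320.4, so Ifit1 was not detected in either group. Its detection p-values lay between 0.445 and 0.727, and no fold is given. This is the gene whose promoter, printed with that of Ifit3, holds the same pair of response element matches.

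Isg20, an exonuclease that degrades single-stranded RNA, had log2 signals of 7.22 and 7.59 with isotype and 7.15 and 7.22 with OX86. The groups did not overlap, with the OX86 arrays lower, although isotype 1 and OX86 2 differed by only 0.0050. Its log2 change was -0.22 (-0.76 to 0.32). It ran from -0.40 without isotype 1 to -0.039 without isotype 2, and was -0.086 on the authors' processed values. Oasl2, a member of the oligoadenylate synthetase family, read 6.58 and 6.66 with isotype and 6.42 and 6.60 with OX86 at its brightest probe. The groups overlapped, with a log2 change of -0.11 (-0.59 to 0.38). That change ran from -0.20 without OX86 2 to -0.018 without OX86 1, and was -0.029 on the authors' processed values. Its second probe was detected on OX86 1 alone.

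Zbp1 binds nucleic acid in the Z conformation and can start inflammatory cell death. Its brightest probe read 8.13 and 8.20 with isotype and 7.62 and 8.00 with OX86. The groups did not overlap, with the OX86 arrays lower. The isotype arrays were 0.069 apart while the OX86 arrays were 0.38 apart. The log2 change was -0.35 (-0.90 to 0.19), or 1.28-fold lower with OX86. It ran from -0.54 without OX86 2 to -0.16 without OX86 1, and was -0.17 on the authors' processed values. The other Zbp1 probe was detected on OX86 1 alone.

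Xaf1, which promotes cell death by opposing the inhibitor protein Xiap, varied most among the tested genes. Its probe read 6.17 and 6.37 with isotype and 7.08 and 5.70 with OX86. OX86 1 was the highest array and OX86 2 the lowest, and the latter was below detection. The log2 change of 0.11 (-1.01 to 1.24) includes that array at its measured signal, and it was 0.80 without OX86 2. Without OX86 1 the OX86 group is OX86 2 alone, which gives only a bound, at least 1.37-fold lower with OX86. Parp14, an ADP-ribosyltransferase with macrodomains, read 10.52 and 10.93 with isotype and 10.46 and 10.64 with OX86. The groups overlapped, with isotype 2 the highest, and the log2 change was -0.18 (-0.75 to 0.40), or 0.032 without isotype 2.

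**Figure D2:**
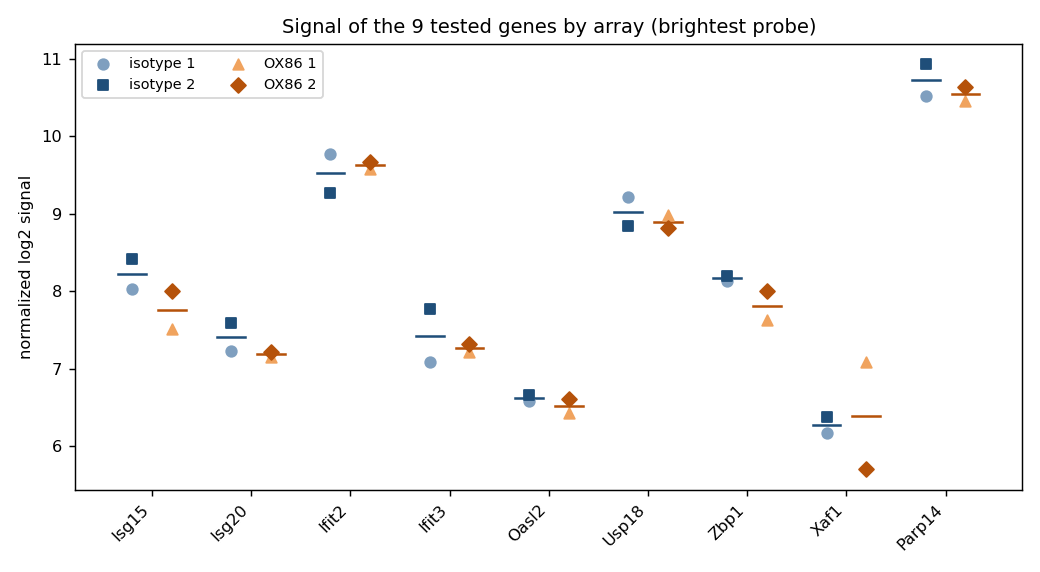
Normalized log2 signal of the 9 tested genes on each array at the brightest probe, with points for arrays and short bars for group means. Both OX86 points lie below both isotype points for Isg15, Isg20 and Zbp1, which they do not with median scaling, and the OX86 points of Xaf1 span 7.08 to 5.70.

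The OX86 arrays both lay under the isotype arrays for 3 of the 12 tested probes (25%), against 13.1% of all tested probes, and above them for 0 of the 12, against 13.9%. Where arrays were scaled to a common median instead, the groups of Isg15, Isg20 and Zbp1 overlapped too, and 0 of the 12 probes had both OX86 arrays lower, against 4.9% of all tested probes. The log2 change was below 0 for 10 of the 12, against 49.0% of all tested probes, and for 8 of the 12 with median scaling, against 28.9%. Every one of the 12 intervals held 0. In all 9 genes the difference between the group means was smaller than the wider of the gaps between arrays of the same group, as it was for 83.4% of all tested genes. The half-widths of the 12 intervals ran from 0.49 to 1.13 with a median of 0.59. For Isg15 the interval excluded log2 changes below -1.12, and for Oasl2 those outside -0.59 to 0.38.

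**Figure D3:**
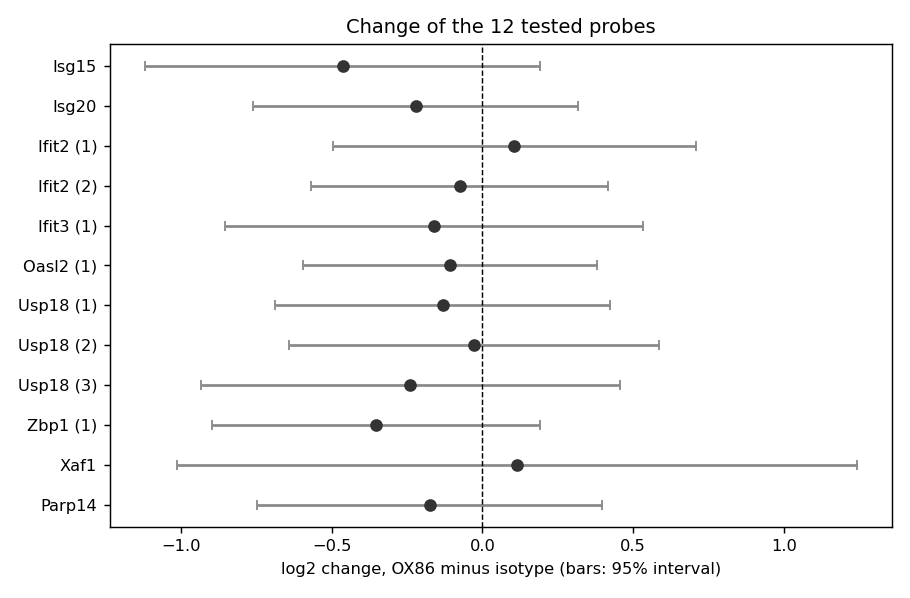
Log2 change (OX86 minus isotype) of the 12 tested probes, with bars for the 95% interval from limma and numbered probes where a gene has more than 1. All 12 intervals cross the dashed line at 0, and 10 of the 12 points lie left of it.

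**Figure D4:**
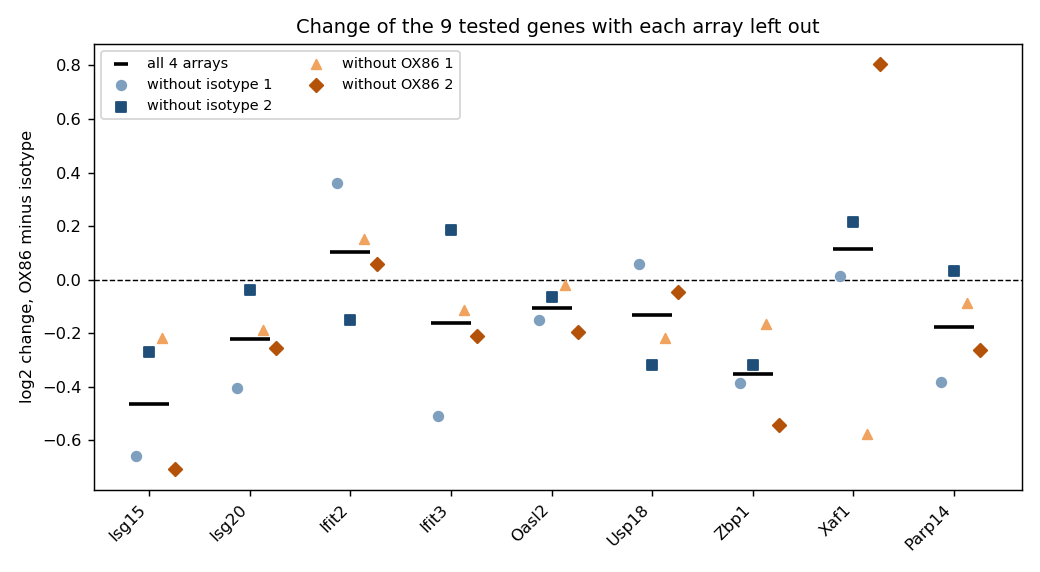
Log2 change (OX86 minus isotype) of the 9 tested genes with all 4 arrays (black bars) and with each array left out in turn (points). Isg15, Isg20, Oasl2 and Zbp1 stay below 0 in each case, whereas Xaf1 reaches 0.80 without OX86 2. The lowest Xaf1 point, without OX86 1, sets isotype against a single array where Xaf1 was not detected and is no exact change.

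The arrays of the isotype group differed from each other in these genes about as much as the groups did. From isotype 1 to isotype 2 the normalized signal was higher in 7 of the 9 genes, with a median difference of 0.20, but in 1 of the 9 with median scaling, where the median was -0.32 against -0.60 over all tested probes. After quantile normalization, OX86 2 differed from isotype 1 by a median of -0.025 and from isotype 2 by -0.29. OX86 1 differed from isotype 1 by -0.15 and from isotype 2 by -0.44. Over all tested genes each of these medians was between -0.0095 and 0.0133. Isotype 2 was the highest of the 4 arrays for 6 of the 9 genes after quantile normalization, against 30.5% of all tested probes, but for 0 of the 9 with median scaling, where isotype 1 was the highest for 7.

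Isotype 2 was also the array that stood apart in signal. In the deposited signals, before any normalization, it was the lowest array for 8 of the 9 genes and for 90.7% of all tested probes. Its 90th percentile was 819.2, against 1210.9 to 1569.0 on the others, and it detected 45.9% of probes, against 50.2% to 53.2%. Its correlations with the other arrays over tested probes were 0.968 to 0.972, against 0.981 to 0.985 among the others, where probes are not independent replicates. The part of this lower signal in the values of the genes was not tested.

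**Figure D5:**
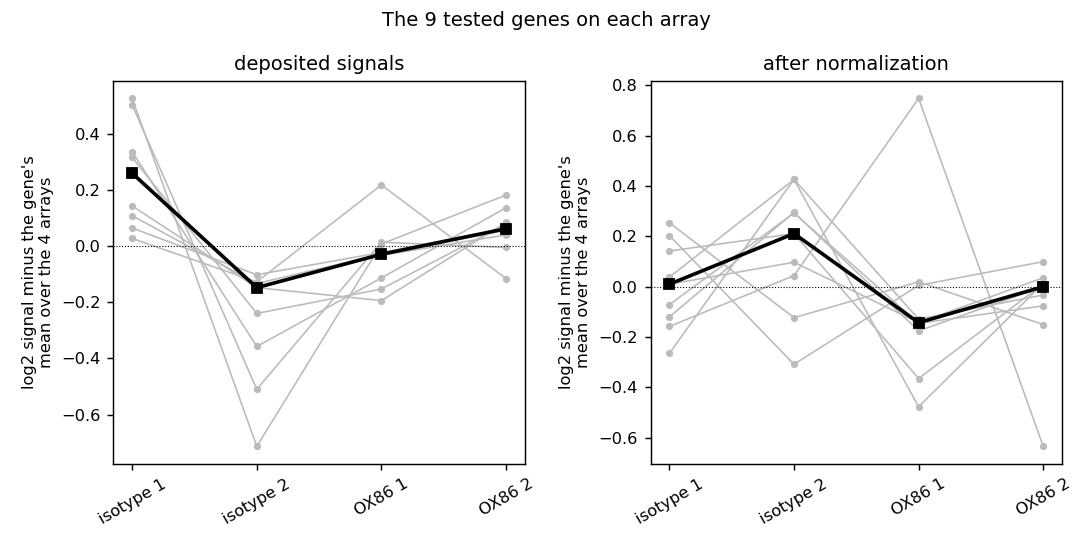
Log2 signal of the 9 tested genes on each array minus the gene's mean over the 4 arrays, in the deposited signals (left) and after background correction and quantile normalization (right), with grey lines for genes and the black line for their median. Isotype 2 moves from the lowest array for 8 of the 9 genes to the highest for 6, and to the highest for 0 where median scaling replaces quantile normalization.

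The receptor and signalling genes upstream of the response were mostly detected, and 0 of 7 tested passed in limma, with 3 higher and 4 lower in mean. Irf9, the DNA-binding partner of Stat2, read 9.72 and 10.33 with isotype and 9.56 and 9.73 with OX86. Its log2 change was -0.38 (-1.04 to 0.28), and the groups overlapped through OX86 2 and isotype 1. Without isotype 2 that change was -0.070. Ifnar2 had 0.31 (-0.24 to 0.86) and Jak1 0.21 (-0.46 to 0.88), and without isotype 2 these were 0.11 and -0.12. Interferon gamma (Ifng), its receptor chains and Jak2 were all lower in mean with OX86, 4 of 4, against 49.0% of all tested probes, and 0 passed. Ifngr1, named after its values were seen, had -0.077, which turned to 0.010 without isotype 2 and 0.087 without OX86 1. The other changes were -0.21 (-1.20 to 0.79) for Ifng, -0.22 (-1.03 to 0.58) for Ifngr2 and -0.16 (-0.64 to 0.33) for Jak2. Ifng read 6.33 and 7.30 with isotype and 6.26 and 6.96 with OX86, and its change was 0.28 without isotype 2. Ifngr2 read 13.64 and 13.65 with isotype and 12.98 and 13.87 with OX86, and its change was 0.22 without OX86 1. Of the 22 genes that the naming rule picked from the related lists, members aside, 8 changed sign when some single array was left out. They were Jak1, Ifng, Ifngr2, Ticam1, Unc93b1, Irf5, Trim25 and Parp3. That rule takes the smallest unadjusted p of each list, which favours genes that keep their sign, so the count does not describe the lists as a whole.

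Of 16 type I interferon genes on the array, 8 were detected on no array, Ifnb1 among them, and 7 on 1 to 3 arrays. The gene detected on all 4 was Ifna6, named after its values were seen, which read 7.53 and 7.32 with isotype and 7.20 and 7.97 with OX86, with overlapping groups. In the 6 tested genes, 4 were lower and 2 higher in mean, 0 passed in limma, and 2 had an unadjusted p under 0.05, against 3.33% of all tested probes. These were Ifne and Ifna1. Ifne entered the test only through its detection on the isotype arrays, where it was higher. Its p is therefore partly set by the filter and is no support for a change. Ifne was detected on both isotype arrays and neither OX86 array, at least 1.24-fold lower with OX86. Ifna14, named after its values were seen, had the same pattern, at least 1.30-fold lower. Ifna5 was detected on both OX86 arrays and neither isotype array, at least 1.44-fold higher. Ifna14 and Ifna5 thus also entered the test only through the group where they were higher. Their places in the counts of lower and higher genes are partly set by the filter and are no support for a change. For each bound, the dimmer group was set at the lowest detected signal of its arrays, or at the probe's own signal where that was higher. Ifna1 read 6.38 and 6.63 with isotype and 6.05 and 5.72 with OX86, and OX86 2 was below detection. Its log2 change of -0.62 (-1.17 to -0.066) includes that array at its measured signal and is no exact change. The adjusted p was 0.9999 in limma. Detection on the isotype arrays, where Ifna1 was higher, was enough for it to enter the test, so its unadjusted p may also be shaped by the filter. Interferon alpha genes are near copies of each other, so these values are uncertain.

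Nucleic acid sensors and their adapters divided evenly, 6 higher and 6 lower of 12 tested, with 0 passing. The DNA sensor Aim2 had a log2 change of 0.57 (-0.014 to 1.16), the adapter Ticam1 0.29 (-0.50 to 1.09) and the receptor chaperone Unc93b1 -0.33 (-1.23 to 0.57). Aim2 was below detection on isotype 2 and Ticam1 on OX86 1, so the values of Aim2 and Ticam1 are no exact changes. Of the 17 sensors and adapters on the array, 5 were detected on no array: Ifi204, Ifi205, Ifih1, Tlr3 and Tlr8. Kinases and factors that induce interferon had 3 higher and 4 lower of 7 tested, with 0 passing. Among them Irf5 had 0.24, the kinase Tbk1 -0.17 and the ubiquitin ligase Traf6 -0.11.

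Of 22 tested genes among the other antiviral effectors 12 were higher and 10 lower in mean, with a median log2 change of 0.025, and 0 passed. Both OX86 arrays lay above the isotype arrays for 4 of them, Bst2, Slfn2, Mx2 and Tor3a, against 13.9% of all tested probes, and below for 1, Trim21, against 13.1%. The unadjusted p was under 0.05 for 1, Bst2, against 3.33% of all tested probes. Bst2 entered the test only through its detection on the OX86 arrays, where it was higher. Its p and its place among the 4 are therefore partly set by the filter and are no support for a change. Mx2 and Tor3a were named after their values were seen. Of the 35 on the array, 10 were detected on no array, among them Mx1, Oas1a, Oas2, Oas3, Ifitm1 and Ifitm3. Bst2, which tethers budding virus to the cell surface, was detected on both OX86 arrays and neither isotype array, at least 1.61-fold higher with OX86. Slfn2 had a log2 change of 0.41 (-0.10 to 0.92), and Trim21, an intracellular antibody receptor, -0.37 (-0.93 to 0.19). Of the genes of ISG15 conjugation and removal, 3 of 4 were lower in mean, with Usp18 counted again among them. The conjugating enzyme Ube2l6 had 0.41 (-0.21 to 1.03) and the ligase Trim25 -0.018. Ube2l6 was below detection on isotype 2, so its value is no exact change. Uba7, named after its values were seen, had -0.010, which turned to 0.13 without isotype 2. Of 6 tested PARP family genes 4 were lower, with 0.12 for Parp2 and -0.12 for Parp3 beside the value of Parp14.

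Markers of other cell types that a sort could hold were detected in part. Of 6 plasmacytoid dendritic cell markers, Ccr9, Cox6a2, Klk1 and Ly6d were detected on no array, while Pacsin1 and Siglech were detected on all 4. Siglech read 9.99 and 9.77 with isotype and 9.49 and 10.21 with OX86, with overlapping groups. The summed normalized linear signal of the 2 tested markers was 3577 and 3008 with isotype and 3306 and 3544 with OX86. Of 6 myeloid markers on the array, 2 were tested, with sums of 336.7 and 291.5 against 229.7 and 344.7, and Itgam and Itgax were detected on no array. Of 5 B-cell markers, 3 were tested, with sums of 256.1 and 269.6 against 285.8 and 248.6, and Pax5 was detected on none. For NK-cell and CD8 T-cell markers 3 of 6 were tested, with sums of 1081 and 1152 against 1052 and 1164, and Cd8a, Klrb1c and Ncr1 were detected on none. Cd8b1, Eomes and Klrd1 were detected on all 4 arrays, and Cd8b1 read 9.57 and 9.79 with isotype and 9.61 and 9.54 with OX86. Erythroid markers, 3 tested of 4, summed to 1925 and 786.2 against 1314 and 745.8. In each of these lists the ranges of the summed signals overlapped between the groups, and 0 genes passed in limma. Singly, the B-cell marker Ms4a1 read 5.79 and 5.15 with isotype and 6.38 and 6.18 with OX86, and isotype 2 was below detection. Both OX86 arrays lay above both isotype arrays, as for 13.9% of all tested probes. The log2 change was 0.81 (0.13 to 1.49), with an adjusted p = 0.9999 in limma. The other tested B-cell markers, Cd79a and Cd79b, were lower in mean, with log2 changes of -0.26 (-0.96 to 0.43) and -0.16 (-0.76 to 0.43). The erythroid marker Slc4a1 was higher on both OX86 arrays, by 0.14 (-0.35 to 0.62). Hbb-bt and Hba-a1 were lower in mean, with log2 changes of -0.34 and -0.35, which turned to 0.46 and 0.36 without isotype 1. The part of such cells in the values of the antiviral genes was not tested.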

How the data were processed

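Total RNA had been purified, checked on a Bioanalyser and amplified into biotinylated cRNA for Illumina bead arrays, per the labels' protocols. The submitters' processing notes name BeadStudio, without settings. The deposited table held linear signal intensity values with a detection p-value beside each, and the smallest p-value step in the deposited table was that of 798 negative controls. A second table held the authors' processed intensity values, which had the same ranks on each array and lay within 1% of a quantile normalization of the first table for at least 99.98% of values. They served as an alternative.

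Signals were processed with neqc in limma 3.58.1 (R 4.3.3): normal-exponential background correction inferred from the detection p-values, an offset of 16, quantile normalization and log2. Probes with a detection p under 0.05 on at least 2 arrays were tested (13338 of 25697). OX86 was compared with isotype by lmFit and eBayes, two-sided, with Benjamini-Hochberg adjustment, 2 residual and 3.68 prior degrees of freedom. Symbols came from the platform annotation, which gave 1 symbol to 23978 probes, several to 0 and none to 1719. A gene with several tested probes is represented by its brightest, and all probes of the 10 genes are reported. From each related list up to 3 genes with the smallest unadjusted p are named. For these lists, leaving out each array was added after seeing the data. The members and lists were chosen with earlier results of these data known. The calculation was tested on simulated data. The number of arrays limits the precision.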

Additional observations from a re-analysis of the deposited data

How the results depend on the processing

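The count of probes past the threshold was 0, over all probes and among the 10 genes, under each of the 14 alternatives, in limma with Benjamini-Hochberg adjustment. At an unadjusted p under 0.05 the alternatives gave 102 (median scaling) to 1540 (without isotype 1) probes, against 444. The smallest adjusted p without isotype 1 was 0.327, and it was 0.9997 or more under the others. Among the probes of the 10 genes, Xaf1 alone had an unadjusted p under 0.05, and only without OX86 2. The median log2 change of the tested genes was -0.030 with median scaling, where the median of all tested genes was 0.12, a difference of -0.15. With an array left out it ran from -0.38 to -0.064, and 6 to 8 of the 9 genes were lower. The other alternatives gave -0.17 to -0.086, with 7 genes lower under each. With median scaling the second probes of Ifit2 and Usp18 turned to 0.067 and 0.10. With an array left out, 8 of the 12 probes had at least 1 value of the opposite sign. The ranges were -0.58 to 0.80 for Xaf1, where the lower end rests on OX86 2 alone, below detection, and is no exact change, -0.51 to 0.18 for Ifit3, -0.38 to 0.032 for Parp14, -0.15 to 0.36 and -0.15 to 0.0052 for the brightest and second Ifit2 probes, and -0.32 to 0.057, -0.30 to 0.24 and -0.59 to 0.11 for the Usp18 probes in order of brightness. The cause was not tested. The groups of Isg15, Isg20 and Zbp1, which did not overlap after quantile normalization, overlapped with median scaling. With the replicate number as a block, 0 probes passed and 522 had an unadjusted p under 0.05. The deviations of same-numbered arrays correlated at 0.0655 over tested probes, and the labels do not say that the numbers pair the samples.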

Other observations

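Genes across the array whose promoter window holds the response element core GAAANNGAAA had a median log2 change of -0.023 with the 10 genes left out (311 tested genes, 53.7% lower in mean with OX86). Tested genes without it had a median of 0.0039 (7345 genes, 49.1% lower). For the gamma-activated site TTCNNNGAA, 670 tested genes had a median of -0.010 and 52.1% lower. Tested genes without that site had a median of 0.0044 (6986 genes, 49% lower). All these values are after quantile normalization. Isotype 2 was then the highest array for 32.8% of genes with the response element core, against 30.3% without it. For the gamma-activated site these shares were 34.3% and 30%. These are descriptions, with no test.

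The genes whose profile over the 4 arrays was nearest to the mean profile of the 9 tested genes were Aen, Stard7, Alg14, Tbl1x and Ppp2r3c. Their root mean square distances from it were 0.0106 to 0.0164 on the log2 scale. Those distances are shorter than that of any of the 9 genes from their own mean profile (0.0733 for Oasl2 to 0.504 for Xaf1), and 4368 of 9352 other genes were nearer than the median of the 9. Over 4 arrays this likeness does not set the 9 genes apart from the rest of the array.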
